A study of Mus musculus with 2 samples.

Results

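The genes described here are 5 matrix metalloproteinases (Mmp2, Mmp12, Mmp13, Mmp14 and Mmp19) and 4 inhibitors (Timp1, Timp2, Timp3 and Reck), 9 of the 31054 features in the count tables. All 9 were found by symbol, and the comparison was made within stellate, endothelial and Kupffer barcodes, each class set by the unique molecular identifier (UMI) counts of a few marker genes. The data came from hepatic stellate cell (HSC) preparations of the mouse liver, sequenced at single-cell level after 4 weeks of carbon tetrachloride (CCl4), a toxin that injures hepatocytes and induces fibrosis. There were 2 libraries, 1 for each genotype, and how many male mice were pooled in each is not stated. Both genotypes carried p16-CreERT2 and the R26-CAG-LSL-RSR-tdTomato-2A-DTR allele, and both received tamoxifen and diphtheria toxin. The p16-Alb-LRTD mice also carried Alb-DreERT2, whose albumin promoter limits the toxin receptor to hepatocytes, so that hepatocytes with high p16 were eliminated. The p16-LRTD mice lacked this second recombinase and served as the control genotype. The authors saw very mild fibrosis outside the region around the central veins only in mice with both Alb-DreERT2 and the receptor allele. They speculate that the stop cassette did not fully suppress the toxin receptor. As p16-LRTD mice lack Alb-DreERT2, such an effect cannot be told apart from the elimination here. Neither recombinase was driven by a promoter specific to the cells that were sequenced.

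Matrix metalloproteinases are zinc-dependent enzymes that cut collagens and other matrix proteins, and most are secreted as inactive proenzymes. The tissue inhibitors of metalloproteinases (TIMPs) bind the active enzymes and block them, and Reck does so from the cell surface. In the fibrotic liver, stellate cells are known both as the main source of collagen and as a source of Mmp2 and TIMPs, while macrophages are known as a source of Mmp12 and Mmp13.

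A barcode was called stellate when Lrat, Ecm1, Hgf and Reln gave at least 15 of 10000 UMIs, endothelial when Kdr, Stab2 and Ptprb gave at least 8, and Kupffer when Clec4f, Cd5l, Vsig4 and Csf1r gave at least 8. After filtering, p16-LRTD held 9004 barcodes and p16-Alb-LRTD 7416. Stellate barcodes numbered 7852 and 6621, endothelial barcodes 430 and 283, and Kupffer barcodes 283 and 178. Barcodes that met more than 1 rule (245 and 221) were kept out of every class. Median depth in the classes lay between 11781 and 25102 UMIs. Few barcodes lay near a cut, at most 23 of any class within 20% above it and at most 27 within 20% below it. The libraries shared 95 barcode names. All 10 stellate markers, all 8 endothelial markers and all 9 Kupffer markers, rule genes included, were above a level of 5 CPM (UMIs of the gene per 1000000 UMIs of the class) in the class they stand for. For the rule genes this follows from the rule. Passing this level does not set the classes apart. Of the 10 stellate markers, 9 also passed it in endothelial and 8 in Kupffer barcodes. Of the 9 Kupffer markers, 5 passed it in endothelial barcodes. The Kupffer barcodes also held markers of infiltrating macrophages (Ccr2, Ly6c2, Spp1, Gpnmb and Trem2), with a summed level of 1451 and 421.8 CPM. Since there was 1 library for each genotype, no test was possible. All intervals are at 95%: exact Poisson for levels, exact conditional for ratios and Clopper-Pearson for shares. They describe counting error alone and say nothing of how mice or preparations vary. Where values come in pairs, p16-LRTD is given first. Ratios are given as log2 of p16-Alb-LRTD over p16-LRTD.

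Mmp12 and Mmp13 lie on chromosome 9, Mmp12 from 7344381 to 7369499 and Mmp13 from 7272514 to 7283331 (GRCm38). The 60 bases before their annotated start sites are printed because both held an AP-1 motif and, as described further on, part of the Kupffer barcodes with 1 of the genes also held the other. The second start site of Mmp12 lies within the gene, and its window falls in an intron of the longer transcript. Beside them stands the same window of Timp1, the inhibitor that differed most between the libraries in stellate barcodes. Capitals mark the AP-1 motif (TGANTCA) and the TATA motif (TATAAA). The sequences are those of RefSeq (GRCm38.p6), read 5′ to 3′ on the strand of the gene.
Mmp12, second start site (chr9:7347314-7347373, plus strand): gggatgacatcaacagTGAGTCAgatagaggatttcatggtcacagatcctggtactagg
Mmp13 (chr9:7272454-7272513, plus strand): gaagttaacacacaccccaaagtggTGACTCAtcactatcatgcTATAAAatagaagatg
Timp1 (chrX:20870106-20870165, plus strand): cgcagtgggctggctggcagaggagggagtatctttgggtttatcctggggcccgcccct

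Promoters were at hand for 7 of the 9 genes, with Mmp12 listed at 2 start sites. Start sites are those of RefSeq, and those of Timp2 and Timp3 and both of Mmp12 lie within the genes as GENCODE gives them. In the 250 bases before the start, both strands searched, the AP-1 motif was found in Mmp13 (35 bases before the start) and at the second start site of Mmp12 (44 bases before it). The TATA motif was found in Mmp13 alone, 16 bases before the start. The first start site of Mmp12, and Mmp14, Timp1, Timp2, Timp3 and Reck, held neither, and no window held the STAT motif TTCNNNGAA. Of 32544 promoters searched in the same way, 6.73% held the AP-1 motif, 12.3% the TATA motif and 7.04% the STAT motif. Fos, Fosb, Jun and Junb, which encode AP-1 subunits, belong to a list of 12 genes known to respond to tissue dissociation. In Kupffer barcodes the 4 AP-1 genes were within 1.5-fold, with log2 ratios of 0.19 for Fos, 0.24 for Fosb, 0.27 for Jun and 0.58 for Junb. The 4 of the 12 that were at least 1.5-fold higher there in p16-Alb-LRTD were Egr1, Ier2, Hspa1a and Hspa1b, and the summed level of the list went from 4063 to 5338 CPM. In stellate barcodes 6 of 12 were higher and the sum went from 6732 to 10346 CPM, and in endothelial barcodes 9 of 12 were higher and the sum went from 3378 to 5989 CPM. The part of this difference in the results that follow was not tested.

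**Figure D1:**
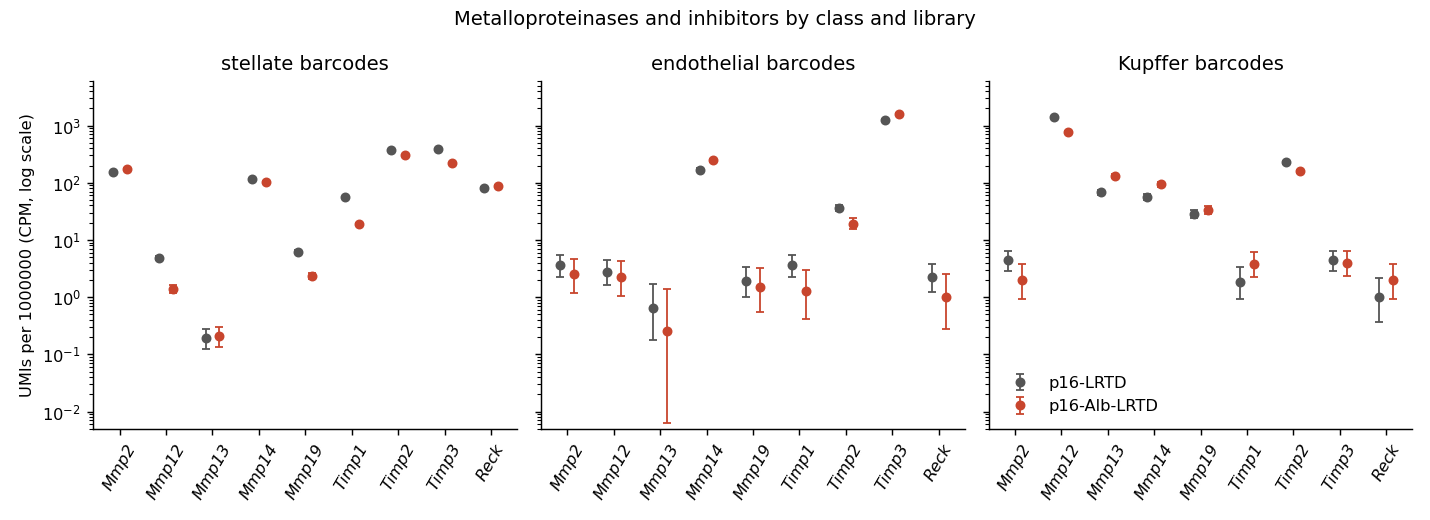
Level of each of the 9 genes in CPM (log axis) in stellate, endothelial and Kupffer barcodes of p16-LRTD (grey) and p16-Alb-LRTD (red), with 95% Poisson intervals (hidden by the point where counts were high). Mmp2, Timp1, Timp2 and Reck were highest in stellate barcodes, Mmp14 and Timp3 in endothelial barcodes, and Mmp12, Mmp13 and Mmp19 in Kupffer barcodes, in both libraries.

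The enzymes and inhibitors were divided between the classes in the same way in both libraries, as the plot of levels shows. Stellate barcodes had the highest levels of Mmp2, Timp1, Timp2 and Reck. Endothelial barcodes had the highest levels of Mmp14 and Timp3. Kupffer barcodes had the highest levels of Mmp12, Mmp13 and Mmp19. In every case the interval of the highest class lay clear of that of the next one. The lower classes were often not separable: for Mmp2, Mmp13, Timp1 and Reck the intervals of the other 2 classes overlapped in both libraries.

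Among the classes, Mmp2, gelatinase A, which cuts denatured collagen and basement membrane collagen, was almost confined to stellate barcodes. Its level there was 153.2 and 175.5 CPM, while barcodes that met no class rule held 84.4 and 78.4 CPM of it. In Kupffer and endothelial barcodes it lay between 2.01 and 4.37 CPM, which is 1.15% to 2.86% of the stellate level. The stellate markers Dcn, Colec11, Pdgfrb, Col3a1 and Rgs5 were found in those classes at 1.0% to 5.42% of their stellate level, and in each class and library Mmp2 lay at or under the highest of these markers. Reck was at 82.5 and 89.1 CPM in stellate barcodes and at 13.2 and 10.1 CPM in barcodes of no class. In Kupffer and endothelial barcodes it was at 1.13% to 2.76% of its stellate level. It lay under the highest marker as well, except in Kupffer barcodes of p16-Alb-LRTD, where 9 UMIs gave 2.26% beside 2.09% for that marker.

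Mmp14, the membrane-bound enzyme that activates the Mmp2 proenzyme together with Timp2, was present in all classes. In endothelial barcodes its level was 168.8 and 247.5 CPM. In stellate barcodes it was 115.5 and 104.1 CPM, and in Kupffer barcodes 56.0 and 94.3 CPM. The Kupffer and endothelial levels were far above what carry-over of stellate RNA gave for the markers. The Kupffer level was 33.2% and 38.1% of the endothelial one. Of endothelial markers in Kupffer barcodes, Cdh5 was at 36.9% and 57.7% of its endothelial level and Pecam1 at 10.1% and 19.0%. Clec4g, Lyve1 and Fcgr2b were at 0.124% to 2.04%. The part of endothelial RNA in the Kupffer Mmp14 value was not tested.

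Timp3, the inhibitor that binds to the matrix and also blocks several ADAM and ADAMTS proteases, was highest in endothelial barcodes, at 1261 and 1600 CPM, against 390 and 219 CPM in stellate barcodes. The Kupffer levels were 4.37 and 4.02 CPM. After thinning each barcode to 5000 UMIs, 97.4% (95.3 to 98.7) and 97.2% (94.5 to 98.8) of endothelial barcodes had a Timp3 UMI, while 1.44% and 1.69% of Kupffer barcodes had one. These Kupffer shares are background.

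Mmp12, macrophage elastase, reached 1400 and 776 CPM in Kupffer barcodes. In stellate barcodes it was at 4.87 and 1.40 CPM, which is 0.348% and 0.18% of the Kupffer level. Kupffer markers outside the class rule were found in stellate barcodes at 0.115% to 0.311% of their Kupffer level in p16-LRTD and at 0.0726% to 0.187% in p16-Alb-LRTD, so the Mmp12 quotient lay just above this range in p16-LRTD and within it in p16-Alb-LRTD. Of the 694 Mmp12 UMIs in stellate barcodes of p16-LRTD, 1 barcode held 174. Mmp12 in stellate barcodes is therefore not read as expression by stellate cells. Mmp13, the main interstitial collagenase of rodents, was at 67.8 and 133 CPM in Kupffer barcodes and had 27 and 26 UMIs in all stellate barcodes together.

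The inhibitors shared out differently in each class. Of the UMIs of Timp1, Timp2 and Timp3 together, Timp3 held 96.9% (96.5 to 97.3) and 98.7% (98.4 to 99.0) in endothelial barcodes. Timp2 held 97.3% (96.4 to 98.1) and 95.3% (93.5 to 96.7) in Kupffer barcodes. In stellate barcodes both were common, and Timp1 was at 55.5 and 19.4 CPM there, against at most 3.80 CPM in endothelial and Kupffer barcodes. Barcodes that met no class rule held more of it (245.5 and 447 CPM). These shares are taken within a library, so scaling between the libraries does not change them.

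**Figure D2:**
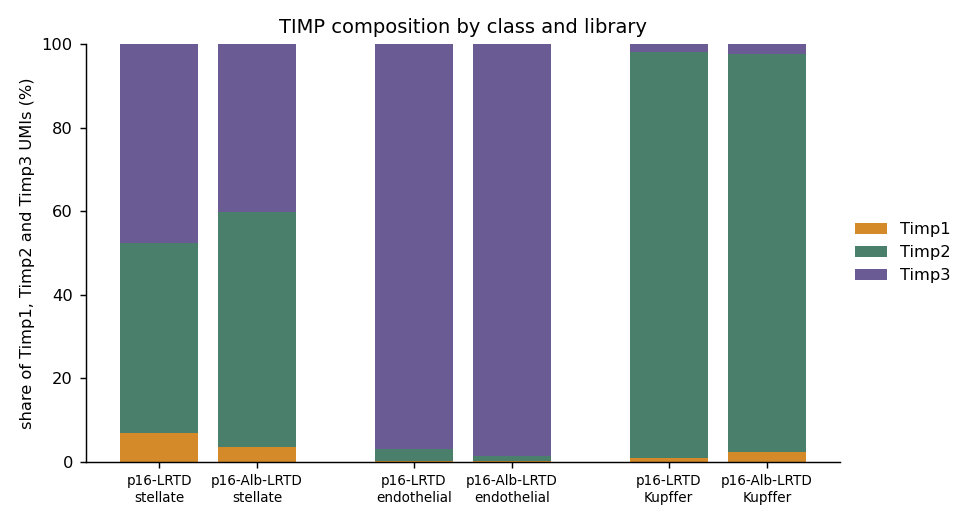
Share of Timp1, Timp2 and Timp3 in their summed UMIs (percent, stacked to 100) in each class and library. In stellate barcodes the Timp1 share was 6.80% in p16-LRTD and 3.55% in p16-Alb-LRTD and the Timp2 share 45.5% and 56.2%, while endothelial barcodes were nearly all Timp3 and Kupffer barcodes nearly all Timp2.

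Whether the genes differ between the genotypes was asked first in stellate barcodes. Timp1 and Timp3 were lower in p16-Alb-LRTD. Mmp2, Mmp14, Timp2 and Reck, which passed the minimum of 5 CPM on average as well, were within 1.5-fold. Thus 2 of 6 genes at that level were at least 1.5-fold lower and 0 were higher, beside 3.05% lower and 3.03% higher among 10179 genes at the same level. The median log2 ratio of the 6 genes was -0.21, beside -0.05 for all 10179 genes. Other markers moved with Timp1 and Timp3 in these barcodes. Of 6 proliferation genes, 5 passed the minimum and 4 of them were lower, among them Mki67 (13.3 and 2.29 CPM) and Top2a (25.8 and 3.33 CPM), and the summed level of the 6 was 458.0 and 289.8 CPM. Without barcodes holding a UMI of Mki67 or Top2a the log2 ratio was -1.39 for Timp1 and -0.82 for Timp3. Of 5 portal fibroblast or mesothelial markers, Dpt was lower (60.4 and 29.7 CPM), Wt1 was within 1.5-fold (43.7 and 43.5 CPM) and Msln, Upk3b and Mgp were under the minimum, with a summed level of 107.2 and 74.5 CPM for the list. Of the other marker lists, 1 gene each was lower among the 10 stellate markers (Pdgfrb, 375.7 and 230.8 CPM), the 8 endothelial (Clec4g, 28.5 and 14.96 CPM), the 5 infiltrating macrophage (Spp1, 9.75 and 5.34 CPM) and the 4 hepatocyte markers (Alb, 13.0 and 7.46 CPM), and 0 were higher. The part of these marker lists in the inhibitor values was not tested.

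Timp1, which blocks most soluble metalloproteinases, went from 55.5 CPM (54.3 to 56.8) to 19.4 CPM (18.6 to 20.1), with a log2 ratio of -1.52 (-1.59 to -1.45). After thinning, the stellate barcodes with a Timp1 UMI were 16% (15.2 to 16.8) and 7.24% (6.63 to 7.89). In endothelial barcodes, as the background, the shares were 0.478% and 0 of 283, the latter allowing a share of up to 1.06% by the one-sided limit of 3 counts and 1.30% by the two-sided Clopper-Pearson interval. The UMIs sat in few barcodes, the top 5% of stellate barcodes holding 49.5% and 50.4% of them. Timp1 (chromosome X, 20870166 to 20874735) lies inside Syn1 on the opposite strand, and Syn1 was at 1.04 and 1.01 CPM in stellate barcodes.

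Timp3 went from 390 CPM (387 to 393) to 219 CPM (217 to 222), with a log2 ratio of -0.83 (-0.85 to -0.81). The thinned share with a UMI was 63.8% (62.7 to 64.9) and 47.4% (46.2 to 48.7). Timp3 (chromosome 10, 86300372 to 86349506) lies inside Syn3 on the opposite strand. Syn3 went from 18.1 to 10.5 CPM in stellate barcodes, with a log2 ratio of -0.78 (-0.88 to -0.69), and stayed at 19.7 and 19.6 CPM in endothelial barcodes. Whether reads were counted by strand is not given in the sources used here, so the 2 genes may share reads.

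Timp2, which both blocks Mmp2 and helps Mmp14 to activate it, went from 372 CPM (368 to 375) to 307 CPM (304 to 310), with a log2 ratio of -0.28 (-0.30 to -0.26). With Timp1 and Timp3 lower by more, its share of the TIMP UMIs went from 45.5% to 56.2%, and that of Timp1 from 6.80% (6.66 to 6.95) to 3.55% (3.41 to 3.69). The Timp1 difference of -3.25 percentage points was -1.71 when both libraries were given the same shares of the collagen ranges described further on. The summed level of the TIMPs was 817 CPM and 545 CPM. Part of Timp2 overlaps Cep295nl on the same strand, so reads there may be split.

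Mmp2 had a log2 ratio of 0.20 (0.17 to 0.22), Mmp14 of -0.15 (-0.18 to -0.12) and Reck of 0.11 (0.07 to 0.15). All of these are under 1.5-fold. Mmp19, a secreted enzyme that cuts basement membrane proteins, was under the minimum level, at 6.27 CPM (5.86 to 6.69) and 2.37 CPM (2.10 to 2.65), with a log2 ratio of -1.41 (-1.60 to -1.21). Its thinned share with a UMI was 2.44% (2.11 to 2.80) and 1.13% (0.893 to 1.42).

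**Figure D3:**
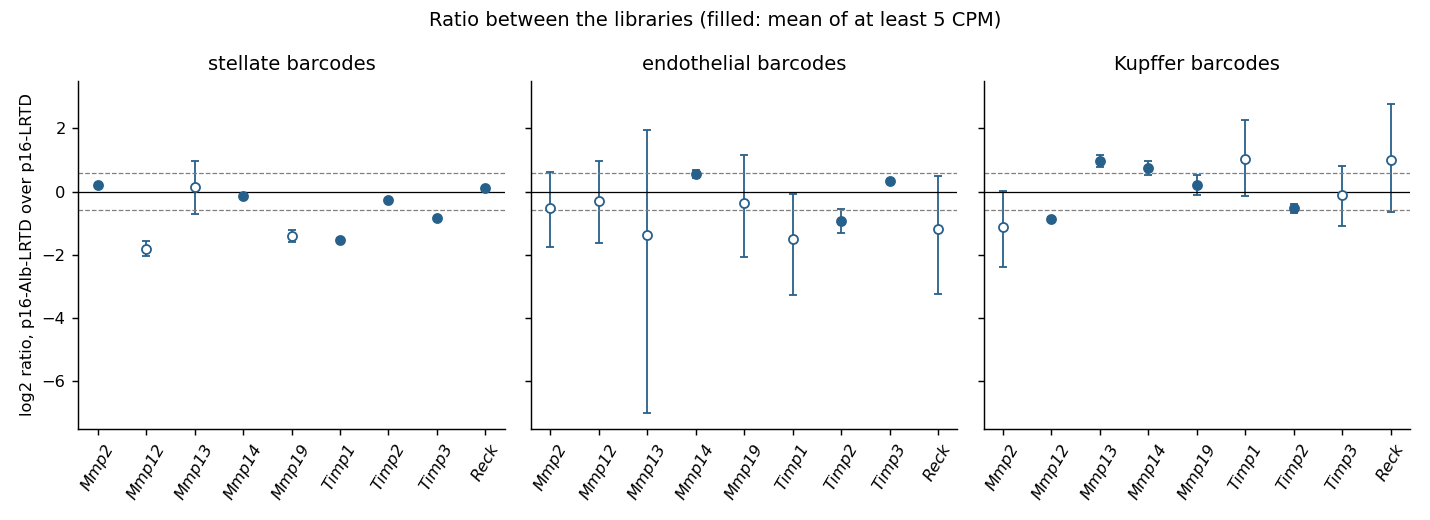
Log2 ratio of p16-Alb-LRTD over p16-LRTD for each gene in the 3 classes, with 95% exact conditional intervals, which are hidden by the point where counts were high. Filled points have a mean of at least 5 CPM, open points less, and dashed lines mark 1.5-fold. Timp1 (-1.52) and Timp3 (-0.83) lie below the lower line in stellate barcodes, Timp3 lies above 0 in endothelial barcodes (0.34), Timp2 lies below the lower line there (-0.91), and in Kupffer barcodes Mmp13 (0.97) and Mmp14 (0.75) lie above the upper line and Mmp12 (-0.85) below the lower one.

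The stellate barcodes of the libraries differed in collagen. They were divided into ranges by the UMIs of Col1a1, Col1a2 and Col3a1 per 10000, which are ranges of a count and not cell types. At 200 and over there were 760 (9.68%) and 28 (0.423%) barcodes. From 50 to 200 there were 2175 and 729, from 10 to 50 there were 4224 and 5137, and under 10 there were 693 and 727. Of 6 activation genes (these collagens, Acta2, Tagln and Lox), 5 were at least 1.5-fold lower in p16-Alb-LRTD in stellate barcodes.

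Most of the genes went with collagen in both libraries. From the lowest to the highest range, Timp1 went from 11.9 to 132.4 CPM in the control library and from 9.44 to 83.1 CPM in the other. Timp2 went from 200.3 to 677 CPM and from 205 to 646 CPM. Mmp2 went from 50.7 to 289.6 CPM and from 88.9 to 463 CPM. Mmp14, Mmp19 and Timp3 were likewise higher in the highest range than in the lowest in both libraries. Reck, the membrane inhibitor, went the other way, from 108 to 54.8 CPM and from 95.5 to 66.5 CPM.

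Within a range, the libraries compared differently than over all stellate barcodes. Mmp2 was higher in p16-Alb-LRTD in all 4 ranges, with log2 ratios of 0.81 (0.66 to 0.96), 0.86 (0.82 to 0.90), 0.72 (0.67 to 0.77) and 0.68 (0.49 to 0.86) from the lowest range to the highest. Each of these is past 1.5-fold, while over all stellate barcodes the ratio was 0.20. In p16-LRTD, 69.9% of Mmp2 UMIs came from barcodes with 50 or more collagen UMIs per 10000, and in p16-Alb-LRTD 25.6% did.

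Timp1 and Timp3 were lower in p16-Alb-LRTD in all 4 ranges. Timp1 had log2 ratios of -0.33 (-0.71 to 0.04), -0.42 (-0.52 to -0.32), -1.05 (-1.18 to -0.93) and -0.67 (-1.13 to -0.25), the first with an interval that includes 0. Timp3 had ratios of -0.88 (-0.95 to -0.80), -0.68 (-0.71 to -0.65), -0.27 (-0.31 to -0.22) and -0.46 (-0.66 to -0.27). The size thus differed between the inhibitors: Timp3 was lowest relative to p16-LRTD where collagen was low, and Timp1 where it was from 50 to 200.

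Timp2 was close to level within ranges, at 0.04, 0.17, 0.09 and -0.07, and Mmp14 was slightly higher, at 0.01, 0.23, 0.28 and 0.22. When both libraries were given the pooled shares of the ranges, the log2 ratio was 0.78 for Mmp2, 0.23 for Mmp14, 0.11 for Timp2, -0.55 for Timp3, -0.73 for Timp1 and -0.15 for Mmp19. Under this setting, chosen after the data had been seen, Mmp2 passed 1.5-fold and Timp3 no longer did. The ranges are set by transcripts of the same barcodes that differ between the libraries, so barcodes of 1 range need not be in the same state in both.

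**Figure D4:**
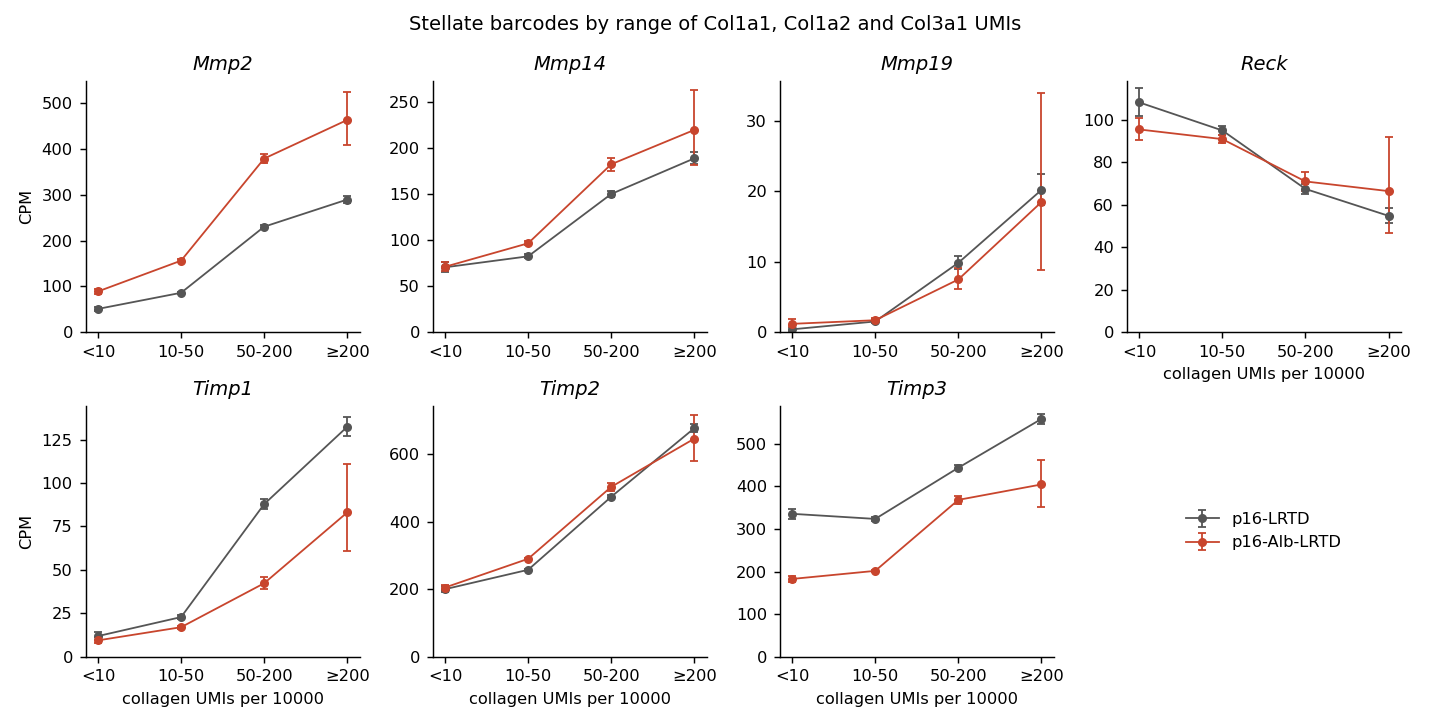
Level (CPM, linear axis from 0) of 7 of the genes in stellate barcodes by range of Col1a1, Col1a2 and Col3a1 UMIs per 10000, in p16-LRTD (grey) and p16-Alb-LRTD (red), with 95% Poisson intervals. Mmp2 lies higher in p16-Alb-LRTD in every range, Timp3 and Timp1 lie lower in every range, Timp2 nearly coincides, and Reck declines with collagen.

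Over stellate barcodes, the genes most like Mmp2 were Alcam (Pearson r 0.52 in both libraries), Col1a1 (0.58 in p16-LRTD and 0.49 in p16-Alb-LRTD) and Sparcl1 (0.51 and 0.46). Those most like Timp2 were Col1a1 (0.58 and 0.44), Col1a2 (0.58 and 0.42) and Alcam (0.45 and 0.41). Ranked by the smaller r of the libraries, as all genes named here for likeness, Timp1 was most like Lgals1 (0.47 and 0.22), Tagln (0.21 in p16-LRTD and 0.20 in p16-Alb-LRTD) and Col1a1 (0.42 and 0.20). These values rest on 7852 and 6621 barcodes and 6342 genes, whose points share a library and differ in depth. The closest genes to Reck, led by Colec10 (0.18 and 0.13), were too weakly correlated to report as a likeness.

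In endothelial barcodes, 3 of the 9 genes passed the minimum. Timp2 was at least 1.5-fold lower in p16-Alb-LRTD and 0 were at least 1.5-fold higher, beside 13.5% lower and 6.44% higher among 9858 genes. Timp3 went from 1261 CPM (1233 to 1289) to 1600 CPM (1561 to 1640), with a log2 ratio of 0.34 (0.30 to 0.39), and thus lay higher in p16-Alb-LRTD here and lower in stellate barcodes. Mmp14 went from 168.8 CPM (158.7 to 179.4) to 247.5 CPM (232.3 to 263.5), with a log2 ratio of 0.55 (0.42 to 0.68). Its thinned share with a UMI was 52.2% (47.2 to 57.0) and 70.0% (64.3 to 75.2). Neither reached 1.5-fold by total scaling, while Mmp14 did with scaling by TMM (0.63) and by median of ratios (0.65). Of the 8 endothelial markers Lyve1 was lower (1111 and 669 CPM) and 7 were within 1.5-fold. Of 3 infiltrating macrophage markers at the minimum, Gpnmb (23.7 and 2.26 CPM) and Trem2 were lower and Spp1 higher (15.4 and 64.5 CPM). Of 5 Kupffer markers at it Marco was lower (23.4 and 3.01 CPM) and 4 were within. Of 4 proliferation genes 3 were lower, and of 9 stellate markers 2 lower and 1 higher. Their part in the Timp3 and Mmp14 values was not tested.

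Timp2 in endothelial barcodes went from 36.4 CPM (31.8 to 41.5) to 19.3 CPM (15.3 to 24.2), with a log2 ratio of -0.91 (-1.31 to -0.53), but this value rested on few barcodes. In p16-LRTD, 4 barcodes held 149 of the 224 Timp2 UMIs, and their median of stellate marker UMIs was 6.49 per 10000, beside 2.12 in all endothelial barcodes. The thinned share with a UMI went the other way, 3.83% (2.20 to 6.14) and 7.77% (4.94 to 11.5). The activation list was at a summed 679 and 46.7 CPM in endothelial barcodes, 5 of 6 genes being past 1.5-fold lower, and its part in the Timp2 value was not tested. The ratio was -0.48 as a mean of per-barcode CPM and 0.19 when barcodes of more than 1 class were kept, so no direction is read for Timp2 here.

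The other genes had at most 22 UMIs in the endothelial barcodes of a library. Over these barcodes Timp3 was most like Insr (r 0.30 and 0.29), Ntn4 (0.34 and 0.29) and Efnb1 (0.41 and 0.25), from 430 and 283 barcodes and 6357 genes.

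In Kupffer barcodes, 5 of the 9 genes passed the minimum. Over all Kupffer barcodes the collagenase Mmp13 and the elastase Mmp12 went opposite ways, but in barcodes low in infiltrating macrophage markers the Mmp12 ratio was reversed (0.50, 0.34 to 0.66), and at 10000 to 30000 UMIs it was -0.07. Mmp13 and Mmp14 were at least 1.5-fold higher in p16-Alb-LRTD and Mmp12 at least 1.5-fold lower. This is 2 higher and 1 lower of 5, beside 5.21% higher and 6.83% lower among 9514 genes. Mmp13 went from 67.8 CPM (61.3 to 74.7) to 133 CPM (122.5 to 144.1), with a log2 ratio of 0.97 (0.79 to 1.16). Mmp14 went from 56.0 CPM (50.2 to 62.4) to 94.3 CPM (85.6 to 103.8), with a log2 ratio of 0.75 (0.54 to 0.96). Mmp12 went from 1400 CPM (1370 to 1430) to 776 CPM (750 to 802), with a log2 ratio of -0.85 (-0.91 to -0.79).

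These UMIs were concentrated in few barcodes. The top 5% of Kupffer barcodes held 49.0% and 43.8% of Mmp12 UMIs and 72.0% and 69.6% of Mmp13 UMIs, with up to 413 Mmp12 UMIs in 1 barcode. The share of barcodes with a UMI overlapped between the libraries after thinning. It was 35.3% (29.6 to 41.2) and 29.4% (22.8 to 36.7) for Mmp12, 12.9% (9.24 to 17.5) and 16.4% (11.3 to 22.7) for Mmp13, and 20.5% (15.9 to 25.7) and 30.5% (23.8 to 37.9) for Mmp14. Mmp19 (28.6 and 33.1 CPM) and Timp2 (228 and 158 CPM) were within 1.5-fold, with log2 ratios of 0.21 (-0.12 to 0.54) and -0.53 (-0.67 to -0.40).

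Mmp12 and Mmp13, whose promoter windows were shown above, overlapped in part among Kupffer barcodes. A Mmp13 UMI was found in 51 of the 113 barcodes of p16-LRTD with a Mmp12 UMI and in 11 of the other 170. In p16-Alb-LRTD it was found in 33 of 71 and in 16 of the other 107. Median depth was 26349 UMIs in barcodes with Mmp12 and 17909 in the others of p16-LRTD, and 26344 and 23955 in p16-Alb-LRTD. Of 5922 genes compared, Mmp12 was the one most like Mmp13 (r 0.44 and 0.55 over 283 and 178 barcodes), followed by Il1rn (0.40 and 0.41) and Arhgap10 (0.38 and 0.48). The genes most like Mmp12 were Cstb (0.71 and 0.58), Gpr137b (0.68 and 0.58) and Lgals3 (0.69 and 0.56), and those most like Mmp19 were Arhgap10 (0.38 and 0.39), Fam129b (0.43 and 0.38) and Chst11 (0.41 and 0.38).

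Markers of infiltrating macrophages moved with the Mmp12 value. Gpnmb was at 717 and 109 CPM in Kupffer barcodes, Trem2 at 412 and 165 CPM and Spp1 at 313 and 141 CPM. Ccr2 was at 8.58 and 6.48 CPM, and Ly6c2 had 2 and 0 UMIs. Of the 9 Kupffer markers 2 were higher in p16-Alb-LRTD, as were Mmp13 and Mmp14: Marco, a scavenger receptor (507.6 and 1461 CPM), and Timd4 (195.1 and 297.3 CPM). Of 5 proliferation genes at the minimum 3 were lower, and the summed level of that list was 370.1 and 259.5 CPM. Of the 8 endothelial markers, 5 passed the minimum in Kupffer barcodes, with Pecam1 higher (62.7 and 125.4 CPM), Lyve1 and Fcgr2b lower, and Cdh5 (361.0 and 530.3 CPM) and Stab2 within 1.5-fold. The summed level of the list was 584.5 and 816.2 CPM, while Kdr, Ptprb and Clec4g lay between 1.51 and 3.36 CPM. The part of these genes in the metalloproteinase values was not tested. Kupffer barcodes were then divided by the summed UMIs of the 5 infiltrating macrophage markers, a division chosen after the data had been seen. Under 2 per 10000 there were 148 (52.3%) and 118 (66.3%) barcodes. Gpnmb, Trem2 and Spp1, which help to set this division, differ between the libraries. Barcodes of 1 side therefore need not be in the same state in both.

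In the barcodes under 2, Mmp12 was at 214.5 CPM (196.9 to 233.3) and 303.3 CPM (283.4 to 324.3), with a log2 ratio of 0.50 (0.34 to 0.66), so its direction was reversed. In the others it was at 2290.2 and 1596 CPM, with a log2 ratio of -0.52 (-0.59 to -0.46). The Kupffer marker Clec4f was at 1711 and 2626 CPM in the others (log2 ratio 0.62), beside 3489 and 3682 CPM in the barcodes under 2. Cd5l, Csf1r and Adgre1 had log2 ratios of 0.12, 0.19 and 0.31 in the others. The part of these markers in the ratios was not tested. Mmp13 was at 26.3 and 46.5 CPM in the barcodes under 2 (0.82, 0.39 to 1.27) and at 99.0 and 283.2 CPM in the others (1.52, 1.31 to 1.72). Mmp14 was higher in p16-Alb-LRTD by a like amount in both, with log2 ratios of 0.90 (0.56 to 1.251) and 0.90 (0.62 to 1.18). Mmp19 was at 11.8 and 18.3 CPM in the barcodes under 2 and at 41.2 and 58.7 CPM in the others, and Timp2 at 142.8 and 127.5 CPM and at 292.5 and 210.4 CPM. All 5 genes were thus higher in the barcodes with 2 or more of these marker UMIs per 10000 than in those under 2, in both libraries, as the plot of the Kupffer subsets shows.

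**Figure D5:**
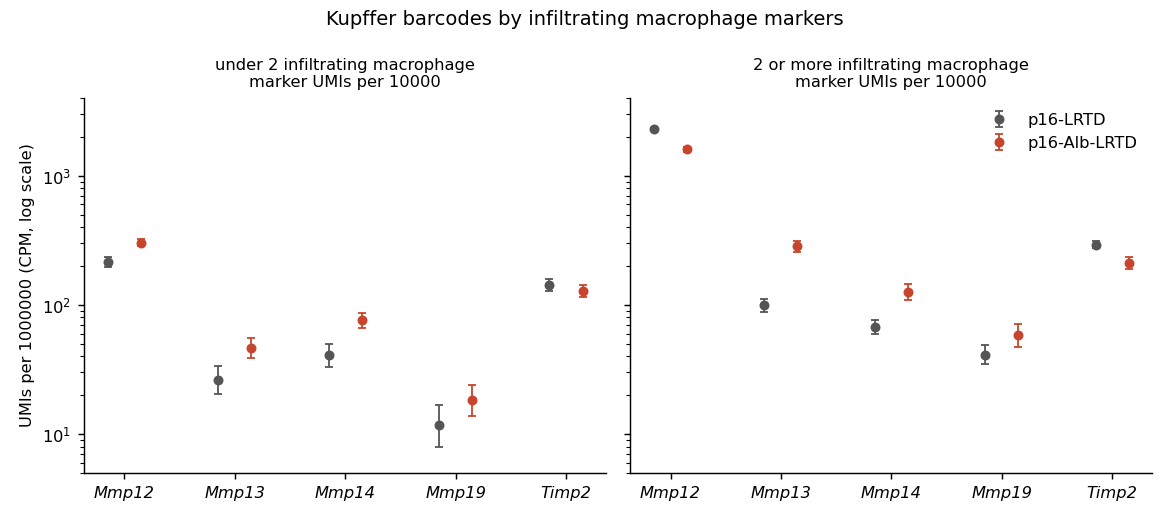
Level (CPM, log axis) of 5 genes in Kupffer barcodes with under 2 (left) and with 2 or more (right) infiltrating macrophage marker UMIs per 10000, in p16-LRTD (grey) and p16-Alb-LRTD (red), with 95% Poisson intervals. Mmp12 lies higher in p16-Alb-LRTD on the left (214.5 and 303.3 CPM) and lower on the right (2290.2 and 1596 CPM), while Mmp14 lies higher in p16-Alb-LRTD on both sides.

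The Mmp12 ratio also came under 1.5-fold as a mean of per-barcode CPM (-0.39) and in barcodes of 10000 to 30000 UMIs (-0.07). That of Mmp14 did so without barcodes holding a UMI of Mki67 or Top2a (0.39), and that of Mmp13 without the barcode filter (0.35). Without Csf1r in the Kupffer rule the ratios were -0.83, 0.75 and 0.94 for Mmp12, Mmp14 and Mmp13.

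Beside these 9 genes, 54 other genes of extracellular proteolysis were listed. In stellate barcodes 34 passed the minimum, of which 5 were lower, 0 higher and 29 within 1.5-fold, beside 3.05% lower and 3.03% higher of all genes. Adam19, a membrane-bound metalloprotease, went from 54.8 to 22.0 CPM, Ctss (cathepsin S) from 8.38 to 4.34 CPM and Plat, tissue plasminogen activator, from 99.6 to 51.8 CPM. The Ctss levels were 0.384% and 0.234% of its Kupffer level, just above the range of carried-over Kupffer markers, so Ctss is not read as stellate expression. The largest ratios stayed within 1.5-fold: Adamts14, a procollagen N-proteinase, went from 56.1 to 75.5 CPM, Adamts5, an aggrecanase, from 165.8 to 204.3 CPM, and Adamts1, another aggrecanase, from 351.0 to 414.3 CPM. By group, 3 of 16 ADAM and ADAMTS genes, 1 of 7 cathepsins and 1 of 2 plasminogen genes at the minimum were lower, and 0 of 3 other metalloproteinases. The median log2 ratio of the 34 was -0.18, beside -0.05 for all genes. Timp4, the only TIMP not among the 9, had 0 UMIs in every class of both libraries.

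In endothelial barcodes 29 of the 54 passed, 4 lower and 1 higher, beside 13.5% lower and 6.44% higher of all genes, the share lower being near the background. Adam23, an ADAM protein without protease activity, was the one that was higher, from 823.6 to 1886 CPM. Ctsl (cathepsin L) at 903 and 1313 CPM and Adamts1 at 357.6 and 511 CPM followed, both under 1.5-fold. Adamts5 went from 20.8 to 5.77 CPM, Serping1, the C1 inhibitor, from 40.8 to 17.6 CPM, and Adam19 from 76.0 to 42.4 CPM. The Serping1 levels were 2.73% and 1.245% of its stellate level, and those of Lrp1, an endocytic receptor of proteases and also counted as lower, 2.61% and 1.45%. Both lay within the range of carried-over stellate markers, so neither is read as endothelial expression. Adamts5 in p16-Alb-LRTD, at 2.83% of its stellate level, lay just above that range, whose upper end was 2.18% in this library.

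In Kupffer barcodes 21 passed, 2 higher and 2 lower, beside 5.21% higher and 6.83% lower of all genes. Those higher were Adam33 (10.1 to 20.8 CPM) and Plau, urokinase (12.3 to 19.4 CPM). Mmp27, a further metalloproteinase, followed at 69.0 and 96.6 CPM, within 1.5-fold. Adam8, a leukocyte metalloprotease, went from 62.7 to 20.3 CPM and Ctsd (cathepsin D) from 4482 to 2669 CPM. Serping1 followed, at 29.8 and 20.6 CPM, within 1.5-fold. Its levels were 1.99% and 1.46% of its stellate level, within the range of carried-over stellate markers, so it is not read as Kupffer expression. Mmp8, neutrophil collagenase, fell under the minimum, with 35 UMIs in p16-LRTD and 4 in p16-Alb-LRTD, where the neutrophil marker S100a8 had 39 and 15 UMIs, S100a9 6 and 3, and Retnlg 0 in both. Csf3r, the remaining marker of that list, was level at 62.4 and 64.4 CPM. Their part in the Mmp8 value was not tested.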

How the data were processed

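Single-cell libraries (10x 3' v3.1) of HSCs purified by pronase and collagenase digestion and a Nycodenz gradient were analysed, 1 library for each genotype. The deposited files hold raw UMI counts per gene and barcode, which the authors made with Cell Ranger 7.0.1 and mm10. Whether intronic reads were counted is not given in the sources used here. The libraries held 11149 and 8806 barcodes with 193746596 and 162219167 UMIs.

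The barcode limits were those of the study: a mitochondrial share of at most 5%, 2000 to 7000 genes and at most 50000 UMIs. No doublet caller was used: doublets were limited by the upper limits and by leaving out barcodes that met more than 1 class rule. Counts were summed by class and library and scaled to 1000000 UMIs of the class (CPM). A gene was called higher or lower past 1.5-fold with a mean of at least 5 CPM. For shares, barcodes were thinned to 5000 UMIs, which left out at most 16 of a class. Named genes were all 9 members, the 3 largest and 3 smallest ratios of the other lists in each class, and the 3 genes with the highest Pearson r, ranked by the smaller r of the libraries, in the class where a member was highest, among genes of at least 20 CPM, on ln(1 + UMIs per 10000); Trem2 and the other markers, the dissociation and proliferation genes, Lrp1, Mmp8 and the overlapping Syn1 and Syn3 were named after their values had been seen. The genes, classes and lists were chosen with earlier results of these data known. Intervals and calls were tested on simulated Poisson counts, which follow the model that the intervals assume. The simulation held no concentration of UMIs in few barcodes, so it cannot show how the intervals hold under it. Scaling by TMM used edgeR 4.0.16, and all else Python 3.11.15, SciPy 1.17.1 and pandas 2.3.3. Coordinates are from GENCODE vM21 (GRCm38). One gene each of the macrophage and protease lists is not reported here and was left out of their sums and counts. A planned comparison of protein sequences was not made here.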

Additional observations from a re-analysis of the deposited data

Results flagged for a closer look

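Timp3 and Mmp14 went opposite ways between the libraries in different classes, each with an interval clear of 0. Timp3 had a log2 ratio of p16-Alb-LRTD over p16-LRTD of -0.83 in stellate and 0.34 in endothelial barcodes, a difference of 1.17. Mmp14 had ratios of -0.15 in stellate, 0.55 in endothelial and 0.75 in Kupffer barcodes, so that the endothelial ratio exceeded the stellate one by 0.703 and the Kupffer ratio exceeded it by 0.903. With 1 library for each genotype these differences were not tested. Within collagen ranges of the stellate barcodes Mmp14 was not lower (log2 ratios of 0.01 to 0.28), while Timp3 was lower in each range.

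Barcodes that met no class rule entered no comparison. The control library had 194 and p16-Alb-LRTD 113. In them Timp1 was at 245.5 CPM (231.2 to 260.5) and 447 CPM (421.9 to 473.1), with a log2 ratio of 0.864 (0.74 to 0.98), against -1.52 in stellate barcodes.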

How the results depend on the processing

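Of 331 ratios of single genes under the alternatives, 245 stayed within the counting interval of the reported value and 84 moved outside it, and 2 called values changed direction: Timp2 in endothelial barcodes (0.19 with barcodes of more than 1 class kept) and Mmp12 in Kupffer barcodes (0.50 in barcodes low in infiltrating macrophage markers). In stellate barcodes Timp1 and Timp3 stayed past 1.5-fold under every alternative on barcodes and scaling, except Timp3 with pooled collagen range shares. The number past the threshold there was 4 with a minimum of 1 CPM and 4 with no minimum beyond 10 UMIs (Mmp12 and Mmp19 added), and 1 at 2-fold. In endothelial barcodes it was 1, and became 0 with the mitochondrial limit alone, as a mean of per-barcode CPM and at 2-fold, 2 with class cuts doubled, barcodes of more than 1 class kept, TMM or median-of-ratios scaling, and 3 with a minimum of 1 CPM, no minimum beyond 10 UMIs or a lower fold limit (0.32 on the log2 scale). In Kupffer barcodes it was 3, and became 7 with barcodes of more than 1 class kept, 6 with a minimum of 1 CPM or no minimum beyond 10 UMIs, and 0 at 2-fold. TMM and median-of-ratios scaling shifted every ratio by 0.04 to 0.10.

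The Timp1 share of stellate TIMP UMIs differed by -3.25 percentage points, by -2.60 as a mean of per-barcode CPM, -2.65 at 10000 to 30000 UMIs, -2.74 without barcodes with Mki67 or Top2a, -1.71 with pooled collagen range shares and -2.58 under 200 collagen UMIs per 10000. The median carry-over of stellate markers into Kupffer barcodes was 1.65%, and 10.7% with barcodes of more than 1 class kept. Of the other protease genes, 5 were past 1.5-fold in stellate, 5 in endothelial and 4 in Kupffer barcodes. With 1 CPM it was 12 in endothelial and 10 in Kupffer barcodes, with no minimum beyond 10 UMIs 12 in stellate, 13 in endothelial and 11 in Kupffer barcodes, at that lower fold limit 13, 13 and 7, and at 2-fold 1, 3 and 2. These counts too stand without the share of all genes under each alternative, and are not read as a result about the protease genes. Beyond what each construction shows, the cause was not tested. The class with the highest level was the same for all 9 genes in both libraries under every alternative run.

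The alternatives on Csf1r, infiltrating macrophage markers and collagen were chosen after seeing the data. There was no replicate to leave out. No paired analysis was possible because only 1 library a genotype was made. Depth limits genes under about 5 CPM in endothelial and Kupffer barcodes, where a few UMIs set the ratio.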

Other observations

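In the barcodes of no class Mmp19 was within 1.5-fold, at 52.8 and 69.4 CPM (log2 ratio 0.39, 0.11 to 0.68), while Timp1 was past it. Mmp12 was at 349 and 86.7 CPM (log2 ratio -2.01), Timp2 at 1170 and 801 CPM (-0.55), Mmp14 at 222.5 and 192.9 CPM and Timp3 at 340 and 363 CPM. Mmp3, stromelysin-1, had 4 UMIs in p16-LRTD and 38 in p16-Alb-LRTD there, and 14 and 2 UMIs in all stellate barcodes. These barcodes held infiltrating macrophage markers, of which Ccr2 (16.3 and 37.2 CPM) and Ly6c2 (21.5 and 86.3 CPM) were higher in p16-Alb-LRTD, Gpnmb (772 and 143 CPM) and Trem2 (312 and 190 CPM) lower, and Spp1 within 1.5-fold (1575 and 1751 CPM). Markers of other cells differed too. Of 4 lymphocyte markers 2 passed the minimum and both were higher, Nkg7 at 14.1 and 55.5 CPM and Cd3e at 8.06 and 20.6 CPM. Of 6 proliferation genes 4 were higher, among them Mki67 (7.61 and 32.3 CPM) and Top2a (8.95 and 32.3 CPM). Of 9 Kupffer markers 6 passed the minimum, with Marco higher (38.3 and 144.5 CPM) and 5 within 1.5-fold, among them Cd5l (27.5 and 19.5 CPM). Of the 3 cholangiocyte markers Krt19 was lower (112.3 and 59.7 CPM), Epcam (3 and 39 UMIs) and Krt7 (17 and 19 UMIs) were higher, and their sum was 116.8 and 81.4 CPM. Of 5 portal fibroblast or mesothelial markers Dpt (137.4 and 89.3 CPM) and Wt1 (444 and 244.3 CPM) were lower and Msln (14.5 and 28.5 CPM) higher. Hepatocyte markers summed to 971 and 410 CPM, and 4 of 10 stellate markers were lower. Of 8 endothelial markers 6 passed the minimum, 4 being higher and 2 lower. Of 4 neutrophil markers 2 passed it, 1 higher and 1 lower. Among the 6 activation genes Acta2 (268.6 and 70.6 CPM) and Tagln (360.5 and 228.9 CPM) were lower and 4 were within 1.5-fold. The part of these differences in the Timp1 and Mmp12 values was not tested.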
